A study of Mus musculus with 36 samples.

Results

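PclWT is a wild-type mouse embryonic stem cell (ESC) line, kept as the matched control of cells that lack the 3 Polycomb-like proteins (PHF1, MTF2, PHF19), and the comparison described here is between its ESCs and the epiblast-like cells (EpiLCs) derived from it. It covers 6 of the 36 RNA-seq libraries of the series, 3 of each stage, chosen by their labels alone, and all genes were read. The labels give the strain as C57BL/6 and list neither a mutation nor an added agent for this line. ESCs grew on gelatin in GMEM with 20% serum, leukaemia inhibitory factor (LIF) and the "2i" pair of inhibitors, 3 µM against GSK3 (CHIRON99021) and 1 µM against MEK (PD0325901). For EpiLCs, ESCs were moved to fibronectin for 2 days in NDiff227 medium with 20 ng/ml activin A, 12 ng/ml basic FGF and 1% serum replacement, so LIF, serum and both inhibitors were absent and activin and FGF were present at the same time. The comparison therefore holds the change of medium and the change of cell state together, in 1 line and at 1 time point. The labels do not say whether libraries of a stage came from separate cultures, so p-values speak only of the spread among these libraries.

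ESCs in 2i and LIF stand for the naive pluripotency of the early epiblast, where blocking MEK silences FGF signalling, blocking GSK3 mimics Wnt signalling and LIF acts through STAT3. Within days of FGF and activin, such cells leave the naive state, lose a circuit of transcription factors that includes KLF4, ESRRB, TFCP2L1 and NANOG, and enter a formative state marked by OTX2, POU3F1 and the de novo DNA methyltransferases. The Polycomb repressive complex PRC2, which trimethylates lysine 27 of histone H3, sits at the promoters of silent developmental genes and redistributes during this transition.

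The 6 libraries held between 8281855 and 9647838 reads in genes, against 6784578 to 18026492 over all 36. Levels below are CPM, read counts scaled to a common library size with TMM factors. EpiLC replicate 1 stood apart from the others before any gene was considered: 16.2% of its reads mapped to several places, against 11.7% to 12.6% in the other 5 libraries, and cytosolic ribosomal protein genes took 7.65% of its reads in genes, against 3.91% to 4.79%. The share of ribosomal RNA genes was 1.40% in EpiLC replicate 1 and 1.24% in ESC replicate 1, and 0.372% to 0.545% in the other 4. Of the genes tested, 1447 and 1636 differed more than 2-fold between EpiLC replicate 1 and replicates 2 and 3, whereas 12 did so between replicates 2 and 3 and between 21 and 36 did so among the ESC libraries. A chi-square of counts per degree of freedom was 1.22 for ESC replicates 2 and 3 and 1.59 for EpiLC replicates 2 and 3, above the value near 1 that counting noise alone gives. It was 6.94 and 6.95 for ESC replicate 1 against the other ESC libraries and 61.3 and 67.9 for EpiLC replicate 1 against the other EpiLC libraries, and all 6 libraries were kept as separate samples.

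The deviation of EpiLC replicate 1 followed transcript length. In the quintile of genes with the shortest summed exons (2553 genes, median 1687 bp), its median log2 ratio to the other EpiLC replicates was 0.60, and in the longest quintile (2553 genes, median 9850 bp) it was -0.64. The difference between the longest and the shortest quintile was thus -1.24 on the log2 scale, while it lay between -0.199 and 0.154 in the 33 libraries of the other groups. The lowest of those 33 was ESC replicate 1 of the same line. With all 6 libraries the median stage change stayed between -0.01 and 0.08 in every quintile, with replicate 1 and the other EpiLC replicates leaning in opposite directions. Without EpiLC replicate 1 the median stage change went from -0.18 in the shortest quintile to 0.17 in the longest, a trend not seen in J2WT, the wild-type control of the Jarid2-null cells in the same series, whose medians lay between -0.01 and 0.00. Leaving the library out thus did not give a comparison free of length. What set the library apart was not tested, and calls below are given with and without it where they differ.

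**Figure D1:**
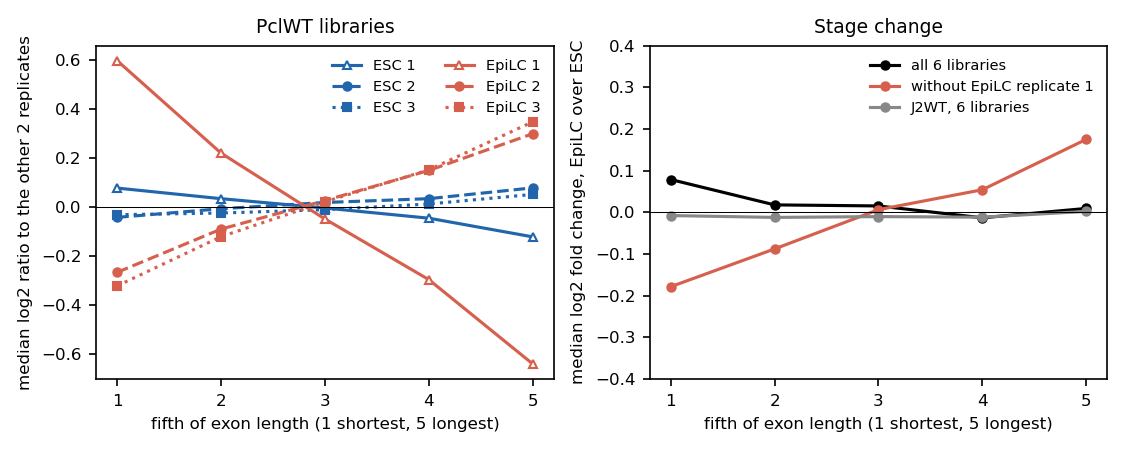
Transcript length and the PclWT libraries. The left panel gives each library's median log2 ratio to the other replicates of its stage in quintiles of exon length, from 1 (shortest) to 5 (longest), and the EpiLC replicate 1 line falls from 0.60 to -0.64 while the ESC lines stay near 0. The right panel gives the median log2 fold change of EpiLCs over ESCs in the same quintiles, flat with all 6 libraries and in J2WT and rising from -0.18 to 0.17 without EpiLC replicate 1.

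With all 6 libraries, 12768 genes had a mean normalised count of at least 15 and were tested with edgeR's quasi-likelihood test. Of these, 1174 (9.19%) were higher and 791 (6.2%) lower in EpiLCs, together 15.4%, by more than 1 in log2 fold change and with a Benjamini-Hochberg adjusted value below 0.05, which is what "rose", "fell" and "called" mean below. The libraries of both stages did not overlap for 48.6% of the genes tested, and for 1168 of the 1174 genes called higher and 791 of 791 called lower. Without EpiLC replicate 1, 12724 genes were tested, 1250 (9.82%) were higher and 868 (6.82%) lower. The called genes were largely shared: 1025 of the 1174 higher and 728 of the 791 lower were called again, and 0 were called in the opposite direction. The larger change was in the genes that passed the adjusted p at any size, 3846 (30.1%) with all 6 libraries and 8217 (64.6%) without EpiLC replicate 1. The second fit rests on EpiLC replicates 2 and 3, which lay close together, and carries the trend with length given above. Its smaller p-values were therefore not taken as stronger evidence. The median log2 fold change over all genes tested was 0.02, and the medians of gene lists below are read beside it. Counts called within lists are read beside the 9.19% higher and 6.2% lower, and a count near those shares is no result about the list.

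The naive transcription factors fell together. Of 13 naive pluripotency genes listed, all of them tested, 12 were lower and 1 was higher, against 6.2% and 9.19% over all genes. The median log2 fold change was -3.10. The 13 had no overlap between stages, which held for 48.6% of all genes tested. Nanog (ENSMUSG00000012396, GRCm38 chr6:122707489-122714633, plus strand), a core factor of the naive network, stood at 1379, 1302 and 1275 CPM in the ESC libraries and 130.3, 87.9 and 86.9 CPM in the EpiLC libraries. All EpiLC libraries lay far below the lowest ESC library, and EpiLC replicate 1 was the highest of the 3 (log2 fold change -3.68 ± 0.20 (SE), edgeR adjusted p = 6.64e-05). The nuclear receptor gene Esrrb, a direct target of GSK3 inhibition through TCF7L1, had 758, 831 and 785 CPM in the ESC libraries and 33.6, 45.7 and 51.05 CPM in the EpiLC libraries. It fell in every EpiLC library, here with replicate 1 lowest (log2 fold change -4.17 ± 0.19 (SE), edgeR adjusted p = 4.47e-05). Tbx3, a T-box factor that sustains Nanog expression, was measured at 319, 360.2 and 350.0 CPM in the ESC libraries and 7.22, 8.49 and 10.8 CPM in the EpiLC libraries, again with no overlap (log2 fold change -5.26 ± 0.18 (SE), edgeR adjusted p = 3.34e-05).

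Within the naive circuit, the size of the fall differed widely. Klf4, which carries LIF signals into the network, had 298, 350.1 and 347 CPM in the ESC libraries and 5.25, 8.903 and 7.31 CPM in the EpiLC libraries and the largest fall of the list (log2 fold change -5.51 ± 0.22 (SE), edgeR adjusted p = 3.81e-05). Tfcp2l1, another STAT3 target, had 493, 593 and 569 CPM in the ESC libraries and 10.5, 30.7 and 31.9 CPM in the EpiLC libraries. Replicate 1 was the lowest EpiLC library for this long transcript, with summed exons of 9438 bp, and all 3 were far below the ESC range (log2 fold change -4.48 ± 0.43 (SE), edgeR adjusted p = 0.000448). Klf2, at 439, 429 and 423 CPM in ESCs, was still at 229, 148 and 145 CPM in EpiLCs, and Zfp42 (REX1), a marker widely used to follow exit from the naive state, was at 99.4, 93.3 and 95.4 and 49.00, 41.9 and 39.6 CPM. These were the smallest falls of the list, with log2 fold changes of -1.29 ± 0.19 and -1.13 ± 0.12 (SE). Klf5, Nr5a2, Nr0b1, Tcl1 and Prdm14 fell as well, with log2 fold changes from -4.96 to -1.97. The exception was Dppa3 (Stella), which protects maternal and imprinted methylation: it rose from 10.8, 10.6 and 7.57 CPM to 80.4, 39.4 and 41.9 CPM. The EpiLC libraries were all above the ESC range, with replicate 1 the highest (log2 fold change 2.49 ± 0.32 (SE), edgeR adjusted p = 0.00163), and without that replicate the rise was 2.09 (edgeR adjusted p = 2.79e-10).

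Genes of the LIF and STAT3 pathway moved with the naive factors, some of which are on both lists. Of 13 genes listed, 12 were tested, 0 rose and 7 fell, against 9.19% and 6.2% over all genes, with a median of -1.43. Stat3 itself went from 108, 127 and 109.8 CPM in ESCs to 29.8, 34.8 and 38.6 CPM in EpiLCs, without overlap (log2 fold change -1.72 ± 0.14 (SE), edgeR adjusted p = 0.000254). Its feedback inhibitor Socs3 went from 73.8, 78.97 and 77.9 to 10.9, 10.4 and 10.8 CPM (log2 fold change -2.82 ± 0.11 (SE), edgeR adjusted p = 3.4e-05), with the EpiLC values close together. Bcl3, which encodes an IκB-family coactivator, went from 22.4, 22.9 and 22.7 to 0.766, 1.02 and 0.701 CPM (log2 fold change -4.73 ± 0.17 (SE), edgeR adjusted p = 3.4e-05). Junb and the kinase gene Pim3 fell as well (-1.99 and -1.13), in addition to Klf4 and Tfcp2l1. The receptor subunits were not called: Lifr had a log2 fold change of -0.90 ± 0.23 (SE, edgeR adjusted p = 0.0247), short of the fold required, and Il6st, which encodes gp130, and the kinase gene Jak1 had values of 0.01 and 0.01 with overlapping libraries. Gbx2 was called only without EpiLC replicate 1 (-1.01, against -0.81 with it).

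The formative markers rose, but several from or to very low levels. Of 14 genes listed, 12 were tested, 10 were higher and 1 lower, against 9.19% and 6.2% over all genes, with a median of 1.64. Pou3f1 (OCT6), a POU factor of the formative epiblast, had 10.9, 11.2 and 12.9 CPM in the ESC libraries and 166, 103 and 97.99 CPM in the EpiLC libraries. Every EpiLC library exceeded the ESC range, replicate 1 most (log2 fold change 3.40 ± 0.24 (SE), edgeR adjusted p = 0.000167). Lef1, the Wnt effector, rose from 3.01, 2.68 and 2.004 to 47.03, 32.5 and 33.9 CPM (log2 fold change 3.88 ± 0.23 (SE), edgeR adjusted p = 8.15e-05). The zinc finger genes Zic2 and Zic5 rose by 1.48 and 1.18, the SoxB1 gene Sox3 by 1.80, Sall2 by 2.09 and Grhl2, which opens epithelial enhancers in the formative epiblast, by 1.34 on the log2 scale. Otx2, the homeodomain factor that directs the formative enhancer landscape, was at 0, 0.214 and 0.445 CPM in ESCs and only 3.500, 3.58 and 3.103 CPM in EpiLCs. The libraries did not overlap (log2 fold change 3.95 ± 0.52 (SE), edgeR adjusted p = 0.00178), but without any 1 of the EpiLC libraries the gene did not reach the count minimum.

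Some other markers of EpiLCs stayed low, were not called or fell. Fgf5, the classical marker of the primed and formative epiblast, had 0 reads in all ESC libraries and 0.766, 0.921 and 1.001 CPM in EpiLCs, 26 reads in all, which is under the count minimum. Fgf15 was at 0.679, 0.642 and 0.445 CPM in ESCs and 0.438, 0.614 and 0.4 CPM in EpiLCs, with overlapping libraries and too few reads to test. Dnmt3l was not called (log2 fold change 0.18 ± 0.18, SE). Foxd3, a forkhead repressor needed for leaving the naive state, fell from 49.7, 50.5 and 47.4 to 19.3, 15.8 and 16.8 CPM (log2 fold change -1.50 ± 0.12 (SE), edgeR adjusted p = 0.000237). Of the EpiLC markers, Pou3f1, Lef1, Dnmt3b and, at a low level, Otx2 thus rose while the naive factors fell. Foxd3 fell, Dnmt3l was not called, Fgf5 had few reads and Fgf15 was near 0 at both stages. How fully the cells match the label EpiLC was not tested.

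**Figure D2:**
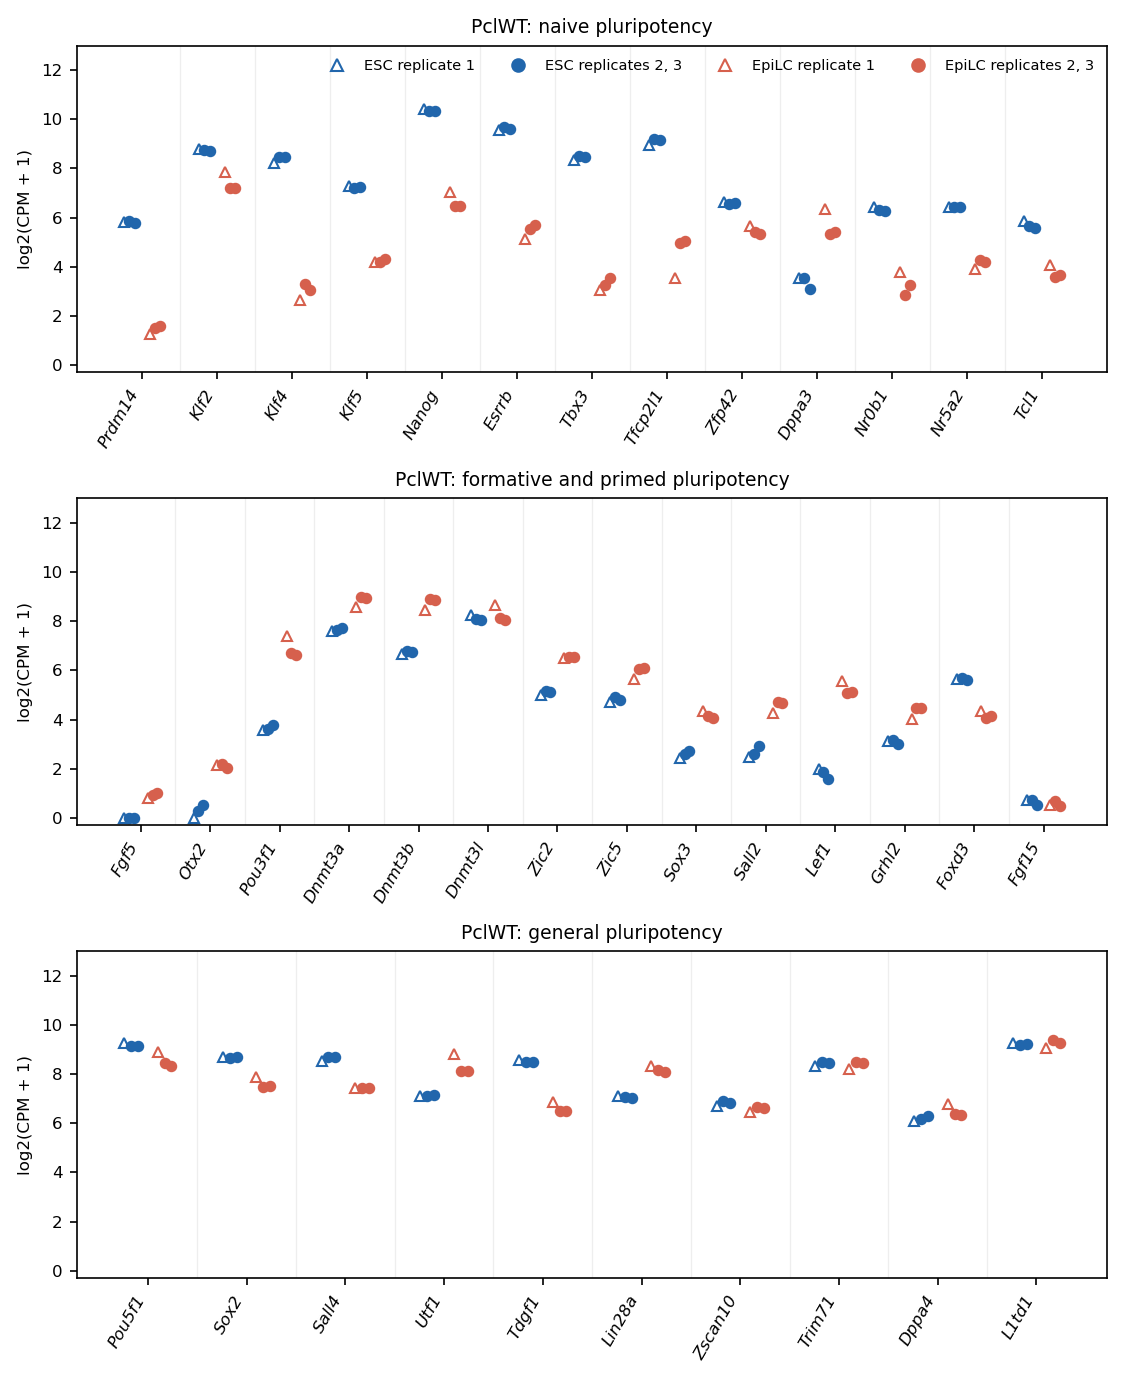
Levels of the naive, formative and general pluripotency genes in the 6 PclWT libraries, as log2(CPM + 1), with triangles for replicate 1 and circles for replicates 2 and 3. The EpiLC points lie below the ESC points for 12 of the 13 naive genes and above them for Dppa3. The formative panel shows Fgf5, Fgf15 and Otx2 at the low end of the axis, and the general panel shows both stages close together for Trim71 and L1td1.

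Factors of pluripotency in general changed less. Of 10 genes tested, 2 rose and 3 fell, against 9.19% and 6.2% over all genes, with a median of -0.13. Pou5f1 (OCT4) was at 615, 559 and 565 CPM in ESCs and 479, 347 and 325 CPM in EpiLCs, lower in each EpiLC library but short of the fold required (log2 fold change -0.58 ± 0.16 (SE), edgeR adjusted p = 0.0364). Sox2, its partner, was at 416, 402 and 411 and 236, 175 and 181 CPM and was called only just (log2 fold change -1.04 ± 0.14 (SE), edgeR adjusted p = 0.00194). Sall4 and Tdgf1 (Cripto), the Nodal co-receptor, fell (log2 fold changes -1.20 and -1.89). Utf1 rose from 138, 136 and 139.8 to 457, 280.4 and 283 CPM and the RNA-binding protein gene Lin28a from 137, 132 and 128 to 321, 286 and 275 CPM (log2 fold changes 1.32 ± 0.20 and 1.17 ± 0.11). Trim71 and L1td1 had log2 fold changes of -0.04 ± 0.12 and 0.03 ± 0.12 with overlapping libraries.

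The ERK feedback genes, which FGF signalling induces and MEK inhibition silences, rose in part. Of 18 listed, 15 were tested, 6 rose and 2 fell, against 9.19% and 6.2% over all genes, with a median of 0.58. Dusp6, the phosphatase that inactivates ERK, was at 6.88, 7.38 and 6.46 CPM in ESCs and 55.02, 53.6 and 55.4 CPM in EpiLCs. The 3 EpiLC libraries lay close together and far above the ESCs (log2 fold change 3.00 ± 0.11 (SE), edgeR adjusted p = 3.4e-05). Egr1, an immediate early gene, rose from 1.16, 1.82 and 2.45 to 14.4, 17.3 and 16.9 CPM (log2 fold change 3.18 ± 0.24 (SE), edgeR adjusted p = 0.000207), and Dusp4, Etv4, Spry4 and Spred1 rose by 1.59, 1.33, 1.26 and 1.13 on the log2 scale. In the other direction, the feedback inhibitor Spry2 fell from 68.1, 73.6 and 73.1 to 19.6, 19.03 and 16.3 CPM (log2 fold change -1.95 ± 0.12 (SE), edgeR adjusted p = 8.48e-05) and Dusp14 fell too (-1.16). Etv5 was at 268, 279 and 270.2 CPM in ESCs and 97.1, 153 and 157 CPM in EpiLCs, a log2 fold change of -0.99 that missed the fold required and passed it with the replicate number as a block (-1.02, edgeR adjusted p = 0.00838). Spred2 and Phlda1 were called only without EpiLC replicate 1 (1.09 and -1.69).

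Among FGF ligands and receptors, 4 of 8 could be tested. Fgf4 (ENSMUSG00000050917, chr7:144847367-144865243), the autocrine FGF of the ESC, was at 217, 216 and 219 CPM in ESCs and 27.1, 26.2 and 23.9 CPM in EpiLCs. The libraries of each stage lay close together, with no overlap between stages (log2 fold change -3.06 ± 0.10 (SE), edgeR adjusted p = 3.34e-05). Fgfr2 rose from 3.98, 4.71 and 4.34 to 9.74, 16.9 and 15.8 CPM (log2 fold change 1.72 ± 0.24 (SE), edgeR adjusted p = 0.00236), while Fgfr1, the main receptor of the epiblast, had a log2 fold change of 0.11 ± 0.10 (SE, edgeR adjusted p = 0.469).

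Activin signals through SMAD2 and SMAD3 in the same way as Nodal. Of 15 genes of this pathway, all tested, 2 rose and 3 fell, against 9.19% and 6.2% over all genes, with a median of 0.12. Lefty1 (ENSMUSG00000038793, chr1:180935022-180938400), a Nodal antagonist and direct SMAD2 target, rose from 39.6, 31.6 and 34.3 CPM to 580.1, 352 and 328 CPM. No ESC library came near the EpiLC range, and replicate 1 was highest (log2 fold change 3.59 ± 0.26 (SE), edgeR adjusted p = 0.00017). Skil, a SMAD corepressor induced by activin, rose from 73.4, 89.8 and 83.6 to 152, 251 and 248 CPM (log2 fold change 1.42 ± 0.21 (SE), edgeR adjusted p = 0.00302). Lefty2, the neighbouring paralogue, went the other way, from 205, 179 and 179 to 107, 93.8 and 87.9 CPM, and was called only without EpiLC replicate 1 (-1.02, against -0.95 with it). Smad7 and the activin subunit gene Inhbb fell (-1.32 and -3.23), as did Tdgf1. Nodal itself was at 140.5, 148 and 129 and 125, 93.3 and 89.6 CPM and was not called (log2 fold change -0.43 ± 0.15 (SE), edgeR adjusted p = 0.0729), nor were the receptor genes Acvr1b, Acvr2a and Acvr2b or Smad2, Smad3 and Smad4.

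The BMP pathway and its Id target genes fell where they were called. Of 15 listed, 12 were tested, 0 rose and 6 fell, against 9.19% and 6.2% over all genes, with a median of -0.64. Id3, an inhibitor of basic helix-loop-helix factors, fell from 22.01, 20.4 and 19.04 to 2.19, 0.512 and 1.001 CPM (log2 fold change -4.05 ± 0.36 (SE), edgeR adjusted p = 0.00037), and Id1 from 9.31, 5.78 and 6.57 to 1.09, 0.307 and 0.1 CPM (log2 fold change -3.85 ± 0.53 (SE), edgeR adjusted p = 0.00216). In both, EpiLC replicate 1 was the highest EpiLC library and still far below the ESCs. Id2, Id4, Msx2 and the ligand gene Bmp4 fell as well (log2 fold changes -2.52, -3.47, -1.86 and -1.39), while the receptor genes Bmpr1a and Bmpr2 and Smad1 and Smad5 were not called.

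The Wnt pathway list was split. Of 16 genes, 13 were tested, 2 rose and 4 fell, against 9.19% and 6.2% over all genes, with a median of -0.14. Cdx1, a homeobox target of Wnt signalling, fell from 63.1, 52.8 and 60.2 to 5.47, 3.79 and 3.703 CPM (log2 fold change -3.75 ± 0.19 (SE), edgeR adjusted p = 5.73e-05), and Sp5 from 3.98, 3.96 and 5.01 to 1.64, 1.23 and 1.001 CPM (log2 fold change -1.72 ± 0.24 (SE), edgeR adjusted p = 0.00235). Notum, a secreted Wnt inhibitor, and Tcf7l1, the TCF factor that represses naive genes, fell (log2 fold changes -2.68 and -1.16). Lef1 and Nkd1 rose (3.88 and 1.67). Axin2, the usual readout of the canonical pathway, was at 45.8, 47.5 and 46.2 and 24.5, 30.7 and 26.3 CPM, lower in every EpiLC library but under the fold required (log2 fold change -0.76 ± 0.12 (SE), edgeR adjusted p = 0.004), and Ctnnb1 was not called (-0.14).

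The genes of cholesterol synthesis rose. Of 19 genes, all tested, 16 rose and 0 fell, against 9.19% called higher over all genes, and the median log2 fold change was 1.58. All 19 had every EpiLC library above every ESC library, while 48.6% of all genes tested had no overlap in either direction. Without EpiLC replicate 1, 17 rose and the median was 1.503. Hmgcs1, which makes HMG-CoA, had 153, 151 and 150.3 CPM in the ESC libraries and 689, 631 and 604 CPM in the EpiLC libraries. The ESC values lay close together and EpiLC replicate 1 was the highest (log2 fold change 2.10 ± 0.10 (SE), edgeR adjusted p = 5.57e-05). Insig1, which retains the SREBP complex in the endoplasmic reticulum when sterols abound, rose from 68.7, 62.5 and 68.5 to 367, 480.1 and 444 CPM (log2 fold change 2.71 ± 0.14 (SE), edgeR adjusted p = 6.51e-05).

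Genes of early and late steps were among those that rose. From the later steps, Lss, which closes the sterol rings, went from 43.8, 43.2 and 42.1 to 161, 241 and 232 CPM, Msmo1 from 66.9, 56.4 and 57.2 to 366, 273 and 258 CPM and Dhcr7, a late reductase, from 57.98, 60.6 and 57.6 to 245, 283 and 285 CPM, with log2 fold changes of 2.31 ± 0.18, 2.33 ± 0.17 and 2.22 ± 0.11 (SE). Of the isoprenoid steps, Fdps rose by 2.45 and Idi1 by 1.27 on the log2 scale. Srebf2, which encodes the transcription factor of the pathway, stood just at the threshold (log2 fold change 1.00 ± 0.14 (SE), edgeR adjusted p = 0.0025), and the call was lost with the replicate block (0.99, edgeR adjusted p = 0.00435). The 3 genes not called were Mvk, Hsd17b7 and Acat2, at log2 fold changes of 0.71, 0.87 and 0.97, of which Hsd17b7 was called without EpiLC replicate 1 (1.05). Outside the list, the stearoyl-CoA desaturase genes Scd2 and Scd1 were among the 10 genes with the largest gain in CPM. Scd2 rose from 403, 434 and 418 to 2011, 2679.5 and 2613 CPM, the largest gain of the comparison (log2 fold change 2.56 ± 0.15 (SE), edgeR adjusted p = 8.02e-05), and Scd1 from 72.7, 81.1 and 77.5 to 299, 441 and 433 CPM (log2 fold change 2.36 ± 0.18 (SE), edgeR adjusted p = 0.000189).

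**Figure D3:**
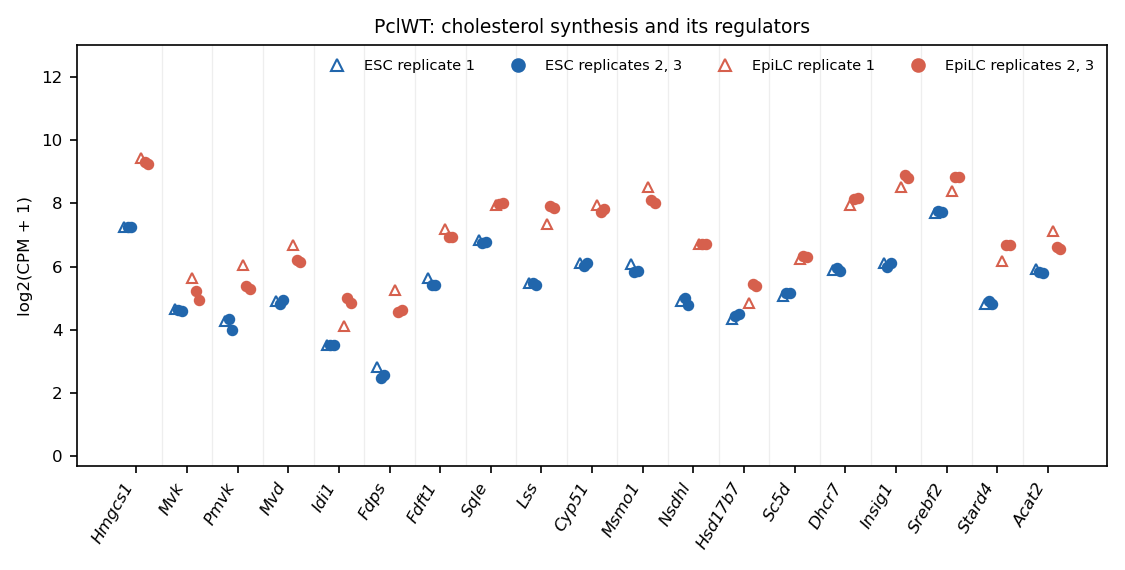
Levels of the 19 cholesterol synthesis genes and regulators in the 6 PclWT libraries, as log2(CPM + 1), with triangles for replicate 1 and circles for replicates 2 and 3. All EpiLC points lie above all ESC points of the same gene, and Hmgcs1 reaches 604 to 689 CPM in EpiLCs.

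SREBP2 binds sterol regulatory elements, and the promoters of the list were searched for the letters TCACNCCAC on both strands, in 300-base windows from 250 bases before to 50 after each gene's start (RefSeq, GRCm38.p6). Of the 19 genes, 15 had a promoter in that table, and 1 of the 15, Hmgcs1, held the motif. Over all 32851 promoters of the table the share was 1.24%, and over the 9846 promoters of genes tested here it was 1.43%. No overlap with another motif was examined. The Hmgcs1 window, chr13:119690101-119690400 on the plus strand, is shown because it is the 1 promoter of the 15 that held the motif, and the capitals mark the motif, which starts at base 114 of the window, upstream of the start site:
Hmgcs1: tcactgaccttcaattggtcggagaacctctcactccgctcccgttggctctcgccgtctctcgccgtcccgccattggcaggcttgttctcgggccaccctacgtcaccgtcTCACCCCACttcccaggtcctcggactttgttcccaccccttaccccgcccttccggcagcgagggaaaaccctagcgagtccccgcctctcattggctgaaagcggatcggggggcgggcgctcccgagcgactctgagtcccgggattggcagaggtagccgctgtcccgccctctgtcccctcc

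Among the PRC2 subunit genes, those called with all 6 libraries fell. Of 12 genes, all tested, 0 rose and 2 fell, against 9.19% and 6.2% over all genes, with a median of -0.34. Without EpiLC replicate 1, 1 rose and 2 fell, and without replicate 1 of both stages 2 rose and 2 fell. Epop (ENSMUSG00000043439, chr11:97627389-97629702, minus strand), which encodes an accessory protein of the PRC2.1 form, was at 1643, 1464 and 1429.9 CPM in ESCs, more than any other subunit, and at 292, 185 and 181 CPM in EpiLCs (log2 fold change -2.77 ± 0.22 (SE), edgeR adjusted p = 0.000223). The loss in CPM was the second largest among the genes called. Eed, a core subunit that reads the H3K27me3 mark, fell from 198, 184 and 188 to 102, 80.1 and 77.7 CPM (log2 fold change -1.12 ± 0.13 (SE), edgeR adjusted p = 0.00115). Suz12, Mtf2 and Aebp2 had negative values that missed the fold required (-0.73, -0.89 and -0.89, edgeR adjusted p from 0.000999 to 0.00685), with no overlap between stages. Ezh2, the main methyltransferase of dividing cells, was at 167, 158 and 166 and 151, 146 and 149 CPM (-0.12 ± 0.09). Ezh1, the alternative enzyme, was at 40.7, 45.5 and 48.3 and 71.3, 95.7 and 95.1 CPM and was called only without EpiLC replicate 1 (1.11, against 0.98 with it). Jarid2, the PRC2.2 subunit, was not called (-0.39 ± 0.17), and the other Polycomb-like genes had log2 fold changes of 0.87 for Phf19 and -0.03 for Phf1, neither called.

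Of 23 PRC1 subunit genes, all tested, 3 rose and 0 fell, against 9.19% and 6.2% over all genes, with a median of -0.02. These were Phc2 (log2 fold change 1.14 ± 0.20 (SE), edgeR adjusted p = 0.00618), Yaf2 and Scml2 (1.08 and 1.02). Phc2 lost its call without EpiLC replicate 1 (0.91) and its paralogue Phc1, the more abundant at 436, 525 and 493 CPM in ESCs and 669.6, 977 and 992 CPM in EpiLCs, gained one (1.04, against 0.87). Cbx7, the CBX subunit of canonical PRC1 in ESCs, and the ligase genes Rnf2 and Ring1 were not called (0.13, -0.23 and -0.02). Kdm2b, which brings a variant PRC1 to CpG islands, had 133, 147 and 148 CPM in ESCs and 31.1, 86.9 and 90.1 CPM in EpiLCs. EpiLC replicate 1 was far below replicates 2 and 3 for this long transcript, and the fold change of -1.02 (edgeR adjusted p = 0.0808) was called only with the replicate block (-1.16, edgeR adjusted p = 0.0337).

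Genes with a start site within 2000 bp of sites that gain or lose PRC2 in EpiLCs moved in opposite directions. The study chose these sites on SUZ12 ChIP-seq of the same PclWT and J2WT cells at both stages, so the lists are not independent evidence of a direction. Near the 398 sites that recruit SUZ12 there were 503 genes, of which 334 passed the count minimum, and 155 of these fell and 5 rose, against 6.2% and 9.19% over all genes tested. Their median was -0.88. Near the 78 sites that lose it there were 96 genes, of which 74 were tested, and 56 rose and 0 fell, with a median of 1.68. Without EpiLC replicate 1 the counts were 159 lower and 4 higher of 332, and 53 higher and 0 lower of 72.

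Jam2 (ENSMUSG00000053062, chr16:84774123-84825928), a junctional adhesion molecule gene near a recruiting site, was at 369, 395 and 393 CPM in the ESC libraries and 4.48, 3.27 and 5.005 CPM in the EpiLC libraries. All EpiLC libraries were far below the ESC range, an 89.4-fold difference (log2 fold change -6.48 ± 0.18 (SE), edgeR adjusted p = 3.34e-05). The axon guidance genes Epha4 and Ntn1 fell from 60.7, 68.5 and 65.1 to 1.31, 1.43 and 2.803 CPM and from 102, 111 and 109 to 2.52, 3.68 and 3.403 CPM (log2 fold changes -5.10 and -5.04). Edn1, the endothelin gene, had 104 reads in ESCs and 0 in EpiLCs, a fall of at least 35.0-fold when 3 counts over the 3 libraries are taken as the floor. Klf2, Klf4, Tbx3, Prdm14, Bcl3, Id1, Id3 and Epop were near recruiting sites as well. The 5 genes that rose near such sites were Nsmaf, Zfp362, Camk2n1, Atxn1 and Ndrg1, named after their values were seen. Among genes near sites that lose PRC2, Bcl11a, a zinc finger repressor, rose from 0.194, 0.107 and 0.223 to 8.53, 10.4 and 8.91 CPM (log2 fold change 5.65 ± 0.27 (SE), edgeR adjusted p = 5.55e-05). Its ESC levels rest on few reads, so the size of this rise is imprecise. Dll1, which encodes a Notch ligand, rose from 0.582, 1.39 and 0.668 to 22.3, 22.6 and 21.4 CPM (log2 fold change 4.66 ± 0.26 (SE), edgeR adjusted p = 7.49e-05), and Cthrc1 and Mapk12 by 4.47 and 3.58 on the log2 scale. Pou3f1, Dnmt3b, Lef1 and Esrp1 were near sites that lose PRC2 as well.

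The de novo methyltransferase genes rose and the demethylation genes diverged. Of 11 DNA methylation genes, 3 rose and 2 fell, against 9.19% and 6.2% over all genes. Dnmt3a went from 196, 198 and 209.9 to 387, 503 and 488 CPM (log2 fold change 1.21 ± 0.13 (SE), edgeR adjusted p = 0.000852) and Dnmt3b from 101, 109 and 108 to 347, 478 and 467 CPM (log2 fold change 2.04 ± 0.15 (SE), edgeR adjusted p = 0.000187), in both with replicate 1 the lowest EpiLC library. Tet2 fell from 216, 307 and 289 to 10.7, 37.2 and 40.04 CPM and Tet3 rose from 11.3, 14.1 and 14.2 to 17.1, 41.1 and 40.1 CPM (log2 fold change -3.18 ± 0.47 (SE), edgeR adjusted p = 0.00296, and log2 fold change 1.33 ± 0.34 (SE), edgeR adjusted p = 0.0249). In both genes replicate 1 was the lowest library of each stage, and Tet1 was not called (-0.46 ± 0.39). Zfp57, the zinc finger protein that guards imprints, fell from 577, 555 and 574 to 93.9, 96.1 and 102 CPM (log2 fold change -2.53 ± 0.10 (SE), edgeR adjusted p = 3.83e-05). The maintenance genes Dnmt1 and Uhrf1 were not called (-0.11 and -0.25).

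Imprinted genes were mostly higher where they were called. Of 23 listed, 18 were tested, 8 rose and 1 fell, against 9.19% and 6.2% over all genes, with a median of 0.89. The fall was that of Plagl1, a paternally expressed zinc finger gene, from 117, 133 and 113 to 5.36, 5.53 and 8.41 CPM (log2 fold change -4.21 ± 0.21 (SE), edgeR adjusted p = 5.57e-05). The growth regulators Cdkn1c, Phlda2 and Grb10 rose, to EpiLC levels of 46.9, 31.1 and 27.3 CPM, 144, 76.95 and 75.8 CPM and 255, 404 and 391 CPM (log2 fold changes 2.43 ± 0.24, 1.73 ± 0.27 and 1.22 ± 0.19). Meg3 and Rian, the maternal RNAs of the Dlk1-Dio3 domain, stayed low, at 2.23, 1.93 and 1.22 CPM in the ESC libraries and 10.6, 7.78 and 6.41 CPM in the EpiLC libraries for Meg3 (2.20) and from 3.98, 3.53 and 3.45 to 8.53, 10.9 and 13.1 CPM for Rian (1.58). In J2WT ESCs the mean level of Meg3 was 449 ± 29.6 CPM and that of Rian 471 ± 20.9 CPM (SD, n = 3), above every PclWT library of either stage, a difference in level that was not tested. H19 was not called (-0.89 ± 0.10). Snrpn and Nnat lost their calls without EpiLC replicate 1 (0.87 and 0.98) and Peg10 gained one (1.20).

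Some markers of other lineages were called, and their counts are to be read beside the 15.4% called over all genes. Of 11 primitive streak and mesendoderm genes, Eomes and Mixl1 passed the count minimum and neither was called (log2 fold changes -0.57 and -0.60). The list summed to 18.6 to 20.3 CPM in ESCs and 12.0 to 14.0 CPM in EpiLCs, with Cer1 at 0 in each library. Of 12 neuroectoderm genes, 4 were tested: Sox1 and Zfp521 rose from 0.582, 0.428 and 0.891 to 3.17, 3.48 and 2.702 CPM and from 0.388, 0.749 and 1.34 to 2.41, 5.42 and 4.704 CPM (2.30 ± 0.29 and 2.37 ± 0.48), Hesx1 fell (-1.37) and Nes was not called. The list summed to 35.4 to 39.7 CPM in ESCs and 32.0 to 41.8 CPM in EpiLCs. Of 17 primitive endoderm genes, 10 were tested and 5 fell, all of them for extracellular matrix: Lama1, Lamc1, Col4a1, Col4a2 and Sparc. The list summed to 1396 to 1535 CPM in ESCs and 478 to 754 CPM in EpiLCs, with Ttr at 0 in each library. The lineage's own factors Gata4, Gata6, Sox7 and Sox17 were at most 2.03 CPM in any library. Lama1 went from 54.7, 60.2 and 67.7 to 3.500, 11.1 and 9.61 CPM (log2 fold change -2.89 ± 0.37 (SE), edgeR adjusted p = 0.00158), and Lamc1 lost its call without EpiLC replicate 1 (-0.83). Of 11 trophoblast genes, 5 were tested and 3 fell, Gata2, Gata3 and Tfap2c (-3.07, -2.05 and -1.06), the last of which also marks naive cells and lost its call without EpiLC replicate 1. That list summed to 75.7 to 77.6 CPM in ESCs and 52.8 to 75.5 CPM in EpiLCs. Of 14 germline genes, 3 rose (Mael, Taf7l and Tdrd1) and Dazl fell (-1.21). Without EpiLC replicate 1, 2 germline genes rose and 2 fell. None of the 2 genes of 2-cell-like cells or the 4 fibroblast genes tested was called. The fibroblast list summed to 33.6 to 38.6 CPM in ESCs and 22.0 to 36.7 CPM in EpiLCs, and Lum and S100a4 were at 0 in all 6 libraries. In bulk RNA, fewer cells of a type and less RNA per cell cannot be told apart.

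Genes of cell adhesion moved in both directions. Of 18 epithelial and mesenchymal genes, 17 were tested, 5 rose and 3 fell, against 9.19% and 6.2% over all genes. Esrp1 (ENSMUSG00000040728, chr4:11331933-11386783), which encodes an epithelial splicing regulator, rose from 0.776, 1.93 and 1.002 to 26.9, 36.3 and 44.8 CPM (log2 fold change 4.88 ± 0.35 (SE), edgeR adjusted p = 0.000163), while its paralogue Esrp2 fell from 7.17, 11.8 and 11.6 to 3.61, 3.58 and 3.603 CPM (log2 fold change -1.48 ± 0.23 (SE), edgeR adjusted p = 0.00344). Epcam rose from 44.02, 40.4 and 45.5 to 256, 181 and 168 CPM (log2 fold change 2.23 ± 0.18 (SE), edgeR adjusted p = 0.000265) and Cldn7 by 1.58. Cdh1, for E-cadherin, fell from 570.2, 587 and 586 to 218, 278 and 288 CPM (log2 fold change -1.14 ± 0.14 (SE), edgeR adjusted p = 0.00117), and Cdh2, for N-cadherin, rose from 3.59, 5.03 and 5.45 to 5.58, 12.2 and 13.8 CPM (log2 fold change 1.19 ± 0.36 (SE), edgeR adjusted p = 0.0452). Cdh2 stayed far below Cdh1 in CPM, a scale that does not correct for transcript length. The mesenchymal repressor gene Snai1 fell (-1.46), Twist1 rose and lost its call without EpiLC replicate 1 (1.23 and 0.97), and Vim was not called. Fn1 was at 1065, 1498 and 1481 CPM in ESCs and 258, 826 and 909 CPM in EpiLCs, with EpiLC replicate 1 far below the others. Its fold change of -1.003 had an edgeR adjusted p of 0.137 and passed only with the replicate block (-1.18, edgeR adjusted p = 0.0277).

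Glycolysis genes did not move together. Of 25 glycolysis and hypoxia genes, 6 rose and 2 fell, against 9.19% and 6.2% over all genes, with a median of 0.00. Slc2a3, which encodes the glucose transporter GLUT3, went from 1829, 1837 and 1864 to 296, 391 and 386 CPM, the largest loss in CPM of the genes called (log2 fold change -2.35 ± 0.15 (SE), edgeR adjusted p = 9.36e-05). Pfkp fell too (log2 fold change -1.28). Pdk1, the kinase that restrains pyruvate entry into mitochondria, rose from 27.2, 29.6 and 28.4 to 203, 234 and 229 CPM (log2 fold change 2.98 ± 0.11 (SE), edgeR adjusted p = 3.4e-05), and Egln3, Aldoc, Bnip3, Ndrg1 and Slc16a3 rose by 2.18, 1.87, 1.45, 1.36 and 1.03. Ldha was at 811, 771 and 723 CPM in ESCs and 525, 372 and 337 CPM in EpiLCs, called only without EpiLC replicate 1 (-1.10, against -0.89 with it), whereas Slc16a3 lost its call without it (0.97). Of 77 nuclear-encoded respiratory chain genes tested, 0 rose and 1 fell, and without EpiLC replicate 1 0 rose and 3 fell. Of 81 cytosolic ribosomal protein genes tested, 0 rose and 0 fell. The ribosomal median was 0.19 with all 6 libraries and -0.22 without EpiLC replicate 1, where these short transcripts were high, so its sign rested on that library. None of the 7 mitochondrially encoded genes or the 3 replication-dependent histone genes tested was called. Without EpiLC replicate 1, 1 of the 3 histone genes was called lower.

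Some stress and cell cycle genes were called, in numbers to be read beside the 15.4% called over all genes. Of 13 p53 targets tested, 2 rose, the BH3-only genes Pmaip1 (NOXA), from 22.01, 17.5 and 19.6 to 119, 113 and 115 CPM (log2 fold change 2.57 ± 0.13 (SE), edgeR adjusted p = 5.57e-05), and Bbc3 (PUMA), by 1.21, while Mdm2 and Ccng1 were not called. Of 15 genes of the integrated stress response, 3 rose (Slc7a11, Vldlr and Cebpb, by 1.74, 1.54 and 1.37), and Atf4 and Ddit3 were not called. Of 13 G1 genes tested, Cdkn1c, Cdkn2a and Cdkn2b rose and Ccnd3 fell from 164, 165 and 162 to 64.9, 57.1 and 55.6 CPM (log2 fold change -1.45 ± 0.10 (SE), edgeR adjusted p = 0.000168). Cdkn2a lost its call without EpiLC replicate 1 (0.87), and Cdkn1a, at -0.87 with it, was called lower without it (-1.02).

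**Figure D4:**
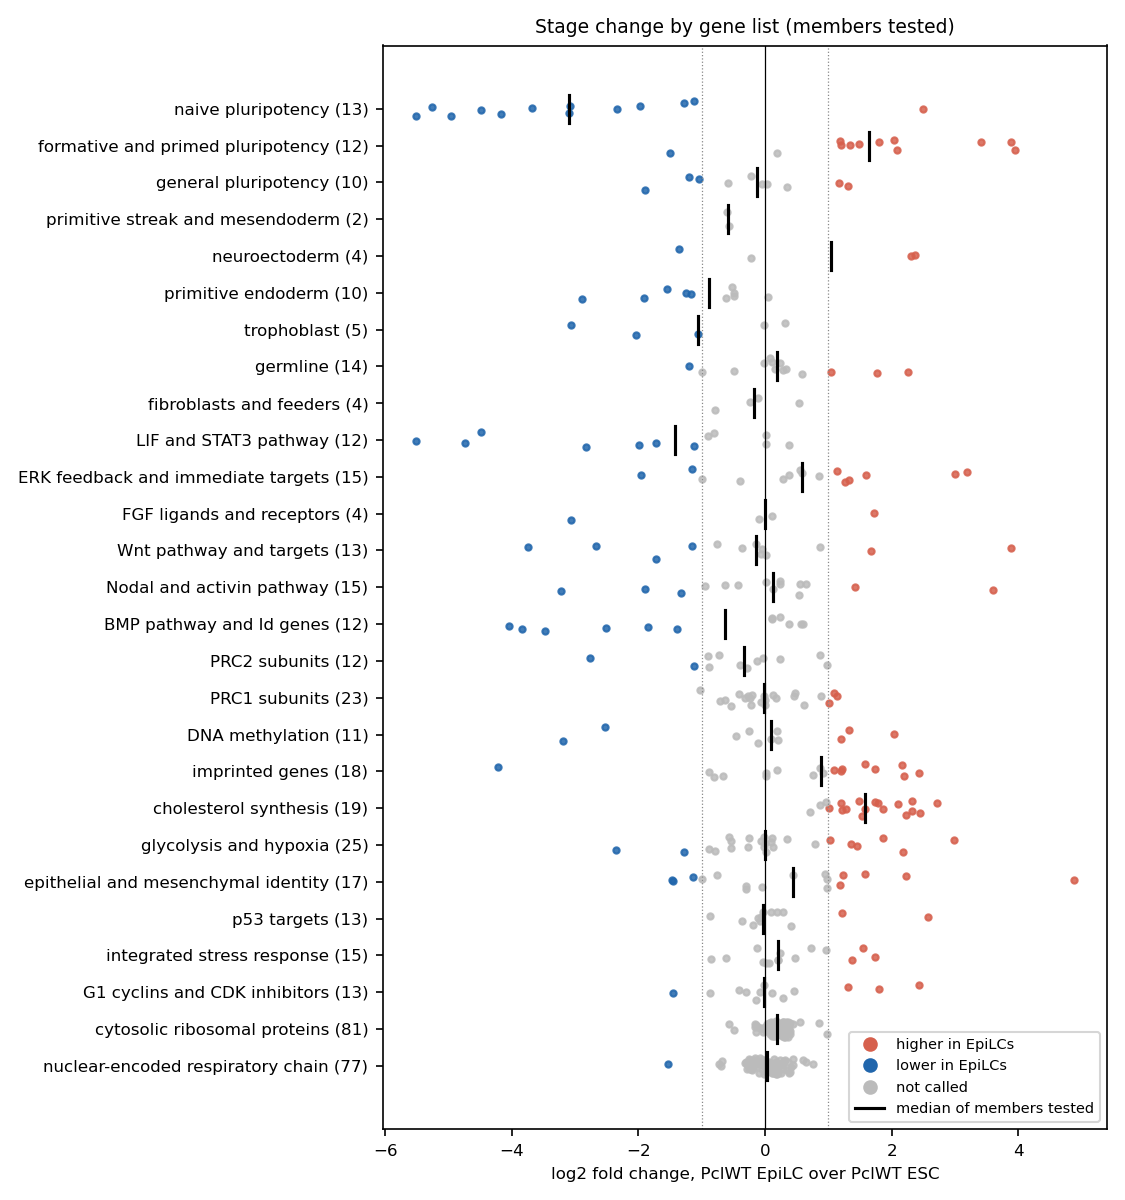
Log2 fold change of PclWT EpiLCs over ESCs for the members tested of most gene lists, with the number tested in brackets, orange points for genes called higher, blue for lower and grey for not called, and a black bar at the list's median. The cholesterol synthesis genes all lie right of 0, 12 of the 13 naive genes left of -1, and the ribosomal protein genes within 1 of 0.

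The largest rises by fold started from almost nothing. Neurog3, an endocrine and neural determinant, had 0 reads in the ESC libraries and 93 in EpiLCs, a rise of at least 30.7-fold over a floor of 3 counts in the 3 libraries. Cxcl12, a chemokine gene, rose from 0, 0.321 and 0.557 to 10.1, 14.5 and 13.5 CPM (log2 fold change 5.45 ± 0.49 (SE), edgeR adjusted p = 0.00037). Wnt8a, an early Wnt ligand gene, rose from 0.291, 0.963 and 0.445 to 15.6, 20.1 and 18.02 CPM (log2 fold change 4.98 ± 0.31 (SE), edgeR adjusted p = 0.0001), and Wt1, the Wilms tumour factor gene, from 0.873, 0.642 and 1.67 to 24.6, 28.8 and 29.03 CPM (log2 fold change 4.71 ± 0.28 (SE), edgeR adjusted p = 8.15e-05). These 3 had no overlap between stages. Ccdc194 and Zfp467 had 2 and 3 reads in all ESC libraries together, too few to give a fold, against 167 and 128 in EpiLCs. Oasl2, Chst1, Epha8, Cnr1 and Cthrc1 were also among the 15 largest rises, with log2 fold changes from 4.47 to 5.33. Neurog3 was under the count minimum without any 1 of the EpiLC libraries, and Zfp467 without EpiLC replicate 1.

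The 15 largest falls held Edn1, Jam2, Klf4, Tbx3 and Epha4 and 10 other genes. Tgm1, a transglutaminase gene, fell from 55.7, 56.5 and 48.8 to 0.766, 0.307 and 0.901 CPM (log2 fold change -6.31 ± 0.26 (SE), edgeR adjusted p = 3.86e-05). Pramel7 and Pramel6, members of a family active in naive cells, fell from 21.8, 15.4 and 15.5 to 0.328, 0.307 and 0.2 CPM and from 11.7, 11.3 and 12.02 to 0.109, 0.512 and 0.2 CPM (log2 fold changes -5.91 and -5.32). Both belong to a multigene family whose copies may share reads. Fgf10 fell from 8.43, 10.1 and 9.68 to 0, 0.205 and 0.3 CPM (log2 fold change -5.65 ± 0.41 (SE), edgeR adjusted p = 0.000174), and Trim43a fell too (log2 fold change -5.37). The EpiLC levels of Fgf10, Pramel6 and Pramel7 rest on few reads, so the sizes of these falls are imprecise. The remaining genes, Tlx2, Msln, Spns3, Cd3g and Sh2d4b, had 118, 157, 107, 142 and 155 reads in the ESC libraries together and 2, 3, 2, 3 and 4 in EpiLCs. By absolute CPM, the losses led by Slc2a3, Epop, Nanog and Esrrb included Ckb, for brain creatine kinase, from 637, 587 and 586 to 59.5, 35.7 and 35.1 CPM (log2 fold change -3.78 ± 0.24 (SE), edgeR adjusted p = 9.87e-05), and Spp1, for osteopontin, from 538, 515 and 484 to 106, 82.3 and 79.4 CPM (log2 fold change -2.51 ± 0.15 (SE), edgeR adjusted p = 8.02e-05). Hspg2, for perlecan, had 459.6, 649.5 and 621 CPM in ESCs and 70.2, 228 and 275 CPM in EpiLCs, and its call was close to the threshold (log2 fold change -1.58 ± 0.47 (SE), edgeR adjusted p = 0.0422). Among the gains, Txnrd1, Rlim and Txnip rose by 1.42, 1.84 and 1.92 on the log2 scale.

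A minority of calls rested on EpiLC replicate 1. Of the 1174 genes called higher, 149 were not called without it, 46 of them because they no longer passed the count minimum, and 63 of the 791 genes called lower were lost. In turn, 225 higher and 140 lower calls appeared only without it. The most abundant genes lost were Kdm5b, a histone H3K4 demethylase, Lamc1, Akap1, Basp1 and Tns3. Kdm5b was at 779, 858 and 828 CPM in ESCs and 266, 468 and 471 CPM in EpiLCs, with a log2 fold change of -1.02 with and -0.79 without the library. The most abundant gained were Phc1, Eif2s2, Ldha, Dppa5a and Slc38a2. Dppa5a, a short naive marker transcript, was at 818, 670.3 and 656 CPM in ESCs and 637, 293 and 296 CPM in EpiLCs, and its log2 fold change went from -0.79 to -1.26 (edgeR adjusted p = 2.2e-09). Without EpiLC replicate 1, 7.58% of the shortest quintile of genes were called higher and 12.3% of the longest, while 10.3% and 4.15% were called lower.

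The same transition was measured in J2WT, with 3 libraries of each stage in the same media, and the difference between lines was tested as the line-by-stage interaction over 12 libraries. Line, genetic background and library batch cannot be told apart in this design. Of 13523 genes tested, 1537 (11.4%) had a more positive and 1363 (10.1%) a more negative log2 change in PclWT, together 21.4%, and 42.9% passed the adjusted p at any size. In J2WT alone, 2141 of 13877 genes (15.4%) were higher and 2057 (14.8%) lower, together 30.3%. J2WT libraries held 15924615 to 17154437 reads in genes, against at most 9647838 in PclWT, where EpiLC replicate 1 also widened the spread. Numbers called in J2WT and in PclWT therefore differ in power and in the genes tested, and do not by themselves compare the size of the transition. Most formative genes differed: 13 of 14 tested had a more negative change in PclWT and 0 a more positive one, and in J2WT 13 of 14 rose with a median of 4.37, against 1.64 over the 12 genes that could be tested in PclWT. Pou3f1 reached 122 ± 37.9 CPM in PclWT and 558 ± 7.97 CPM in J2WT EpiLCs (SD, n = 3), starting from 11.7 ± 1.09 and 1.35 ± 0.118 CPM. Its difference in log2 change was -5.28 ± 0.30 (SE, edgeR adjusted p = 2.25e-07). For Dnmt3a, the ESC levels were 201 ± 7.46 CPM in PclWT and 38.02 ± 1.82 CPM in J2WT, and the difference was -3.27 ± 0.13 (edgeR adjusted p = 2.45e-08). Otx2, Sox3, Grhl2 and Dnmt3b differed by -1.90, -3.31, -2.90 and -1.08.

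Among naive genes, 12 of 13 fell and Dppa3 rose in both lines. Of the 13, 5 had a more positive and 1 a more negative change in PclWT, against 11.4% and 10.1% over all genes. Fgf4 fell in PclWT but had 238 ± 4.19 CPM in ESCs and 292 ± 3.73 CPM in EpiLCs of J2WT, a difference of -3.37 ± 0.09 (edgeR adjusted p = 1.71e-09). Ldha differed by -2.31 ± 0.20, with a J2WT level of 504 ± 15.6 CPM in ESCs and 1345 ± 29.2 CPM in EpiLCs. Kdm5b differed by -1.45 and Epop, lower in both lines, by -1.71. The Wnt targets Sp5 and Cdx1 started in J2WT at 66.1 ± 1.12 and 158 ± 6.76 CPM and fell further than in PclWT, with differences of 8.60 ± 0.53 and 5.62 ± 0.30, as did the aquaporin gene Aqp3 (6.04 ± 0.28). Sox2 did not differ beyond the test (-0.34 ± 0.15, edgeR adjusted p = 0.0885).

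For cholesterol synthesis, 13 of 19 genes rose in J2WT with a median of 1.39, against 15.4% over all genes tested in J2WT. The interaction called 1 gene more positive (Nsdhl) and 0 more negative, against 11.4% and 10.1% over all genes. That the other 18 genes were not called does not show that they changed equally. Scd2 rose more in PclWT (1.54 ± 0.14, edgeR adjusted p = 4.93e-06). The PRC2 sites were chosen on SUZ12 in both lines, so counts near them are not independent evidence of a direction. Among genes near recruiting PRC2 sites, 275 of 362 fell in J2WT with a median of -1.87, against 14.8% over all genes. In the interaction, 162 of 352 had a more positive change in PclWT and 18 a more negative one, against 11.4% and 10.1%. Near sites that lose PRC2, 68 of 77 rose in J2WT with a median of 3.74, against 15.4% over all genes. In the interaction, 0 of 75 had a more positive change in PclWT and 49 a more negative one, Esrp1 among these 49 (-3.93 ± 0.59). Without each library in turn, the interaction called between 1457 and 1640 genes more positive and between 1282 and 1513 more negative.

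**Figure D5:**
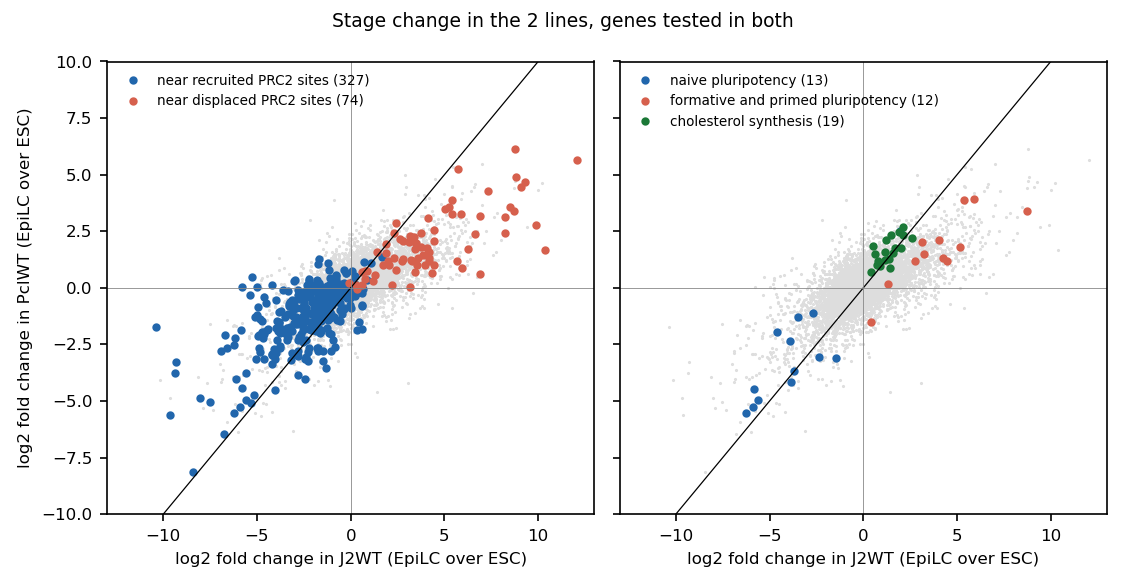
Log2 fold change of EpiLCs over ESCs in PclWT (vertical) against J2WT (horizontal) for the 12348 genes tested in both lines, in grey. The left panel marks 327 genes near sites that recruit PRC2 and 74 near sites that lose it, and the right panel the naive, formative and cholesterol synthesis genes. The black diagonal is the line of equal change, and the naive and formative genes spread on both sides of 0 while the cholesterol genes stay above it on both axes.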

How the data were processed

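Per the labels and the study's methods, RNA was extracted with Qiagen RNeasy, poly(A) libraries were made with a NEBNext kit that does not mark strand and sequenced on a NextSeq 500, and the authors aligned reads to GRCm38 with STAR and the Ensembl 101 annotation. The submitters' processing notes name FastQC, DESeq2, deepTools, GRCm38 and mm10. The authors deposited whole-number read counts per gene and library, not normalised, and the unstranded column was used for 55401 genes, of which 55141 had a symbol, with positions from GENCODE M21. Reads of a gene and an overlapping or antisense gene cannot be told apart in these counts. For 2 symbols shared by several identifiers, Aldoa and Ddit3, the identifier with more counts was used.

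Counts were fitted with edgeR 4.0.16 in R 4.3.3 (TMM, quasi-likelihood test, two-sided, stage as the only term) on the 6 PclWT libraries, for genes with a mean normalised count of at least 15. A gene was called when its log2 fold change exceeded 1 in size and its Benjamini-Hochberg adjusted value was below 0.05. The SE is the log2 fold change divided by the square root of its F statistic. The line-by-stage difference was fitted over 12 libraries. On simulated counts of the stage comparison, 100 genes were changed by 1.5 and 100 by 3 on the log2 scale. Of these, 95 and 97 were tested, and 84.2% and 99.0% of those tested were recovered, with 6 false calls among 12568 unchanged genes. For the line-by-stage comparison the shares were 83.7% of 98 and 98% of 100 tested, with 2 false calls among 13323. Recovery under a length trend like that of EpiLC replicate 1 was not tested.

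Members and lists were chosen with earlier results of these data known. Besides the members of 30 gene lists, the genes named were protein-coding genes with the largest changes: the 15 largest called log2 fold changes in each direction without overlap between stages, the 10 largest differences in mean CPM in each direction, the 10 largest in each direction of the line-by-stage difference, the 10 largest near each class of PRC2 site, and the 5 most abundant called only with or only without EpiLC replicate 1. Clone names, Gm and Rik symbols were left out. Some genes are not reported here, and the lists and their counts leave them out. PRC2 site classes came from the authors' site tables, which give 398 recruiting and 78 losing sites. A gene near sites of several classes, unchanged sites included, was left out. The class of unchanged sites was used only for that. Its list was incomplete here, with 1998 sites, so that exclusion was partial.

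Replicate numbers are shared by both stages. Deviations from the stage means correlated at 0.457, 0.246 and 0.209 between libraries of the same number, for numbers 1, 2 and 3. Between libraries of different numbers they correlated from -0.425 to 0.259 (across 12768 genes, which are not independent replicates). The highest of these, ESC replicate 2 with EpiLC replicate 3, exceeded the same-number values of replicates 2 and 3. The correlations thus set replicate 1 of both stages apart and do not show that numbers 2 and 3 pair libraries. Neither the labels nor the methods say what a number marks. The stage fit without the number is the one reported. Alternatives were DESeq2 1.42.0, RLE size factors, other count minimums, a replicate block, offsets for transcript length, protein-coding genes, the strand columns summed, and each library left out. Leaving out replicate 1 of both stages was chosen after seeing the data. Figures used Python 3.11.15, pandas 2.3.3 and matplotlib 3.10.9.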

Additional observations from a re-analysis of the deposited data

Results flagged for a closer look

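The stage change differed between PclWT and J2WT by the line-by-stage test of edgeR for 1537 genes with a more positive change in PclWT and 1363 with a more negative one. The values below are log2 changes of PclWT minus those of J2WT, all past an adjusted p of 0.05. Line and library batch cannot be told apart in them. Each group held 3 libraries, too few for a test of single outlying libraries.

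The 10 largest positive differences belonged to Hspb7 at 8.71, Sp5 at 8.60, Cacng5 at 7.79, Vsx1 at 7.57, Ciita at 6.78, Kbtbd11 at 6.61, Ccbe1 at 6.39, Aqp3 at 6.04, Trpm1 at 6.04 and Pramef17 at 5.99. The 10 largest negative ones were those of Prss46 at -9.72, Rbbp8nl at -9.03, Trem2 at -8.82, Tmem54 at -8.60, Neurog1 at -8.48, Tmem154 at -8.01, Cd96 at -7.64, Rasef at -7.63, Cubn at -7.50 and Fgf17 at -7.23. Several of these 20 genes had few or 0 reads in a group, so their fitted sizes depend on the prior count and are not bounds. PclWT ESCs held 1 read of Hspb7, 3 reads of Vsx1, 1 of Kbtbd11 and 2 of Prss46 in 3 libraries. Aqp3 was abundant in ESCs of both lines, at 90.1 ± 7.48 CPM in PclWT and 378 ± 6.25 CPM in J2WT (SD, n = 3), and was at 9.22 ± 1.87 and 0.578 ± 0.273 CPM in EpiLCs. Fgf17 was at 11.7 ± 0.863 CPM in PclWT ESCs and 0.634 ± 0.41 CPM in PclWT EpiLCs, and at 0.316 ± 0.0611 and 2.64 ± 0.379 CPM in J2WT.

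Among formative and methylation genes the differences were -5.28 for Pou3f1, -1.90 for Otx2, -3.31 for Sox3, -2.90 for Grhl2, -3.27 for Dnmt3a and -1.08 for Dnmt3b. For signalling genes they were -3.37 for Fgf4 and 5.62 for Cdx1, and for metabolic genes -2.31 for Ldha and 1.54 for Scd2. Epop differed by -1.71, Kdm5b by -1.45 and Esrp1 by -3.93.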

How the results depend on the processing

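With a count minimum of 50, 731 genes were higher and 527 lower, with fewer genes tested. The genes past the adjusted p at any size numbered 2276 to 8411 when libraries were left out: 2277, 2276 and 2319 without ESC replicates 1, 2 and 3, 8217 without EpiLC replicate 1 and 8411 without replicate 1 of both stages. Leaving out libraries gave 967 to 1279 genes higher and 701 to 868 lower. Near recruiting PRC2 sites the genes called higher numbered 3 to 5, with 3 without ESC replicate 1 or ESC replicate 3, those called lower 144 to 159, and near sites that lose PRC2 those called higher 51 to 53. For the line difference the ranges were 1457 to 1640 and 1282 to 1513.

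With the replicate block 1175 genes were higher and 820 lower, 1147 and 786 of them called without it, and beyond Srebf2, Etv5, Kdm2b and Fn1 the block changed no other call among list members and named genes. DESeq2 called 1143 higher and 816 lower. An offset for transcript length called 1181 and 812. Of the other values of single genes, 8964 stayed on their side of the threshold, some uncalled values near 0 with a change of sign (Dnmt3l and Trim71 without EpiLC replicate 1), 65 gained a call, 99 lost one and 0 called values reversed, and of the counts within lists 624 stayed within 1.5 times and 22 did not. Depth limits Fgf5, Fgf15 and Otx2 and the genes at 0 in a stage, and floors cover counting error only. PclWT is 1 line, so no spread between lines was measured.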
